A study of Homo sapiens with 6 samples.

Results

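The type B receptor for γ-aminobutyric acid (GABA) is built from the products of the genes GABBR1 and GABBR2, and the values of these genes were followed in MDA-MB-231 cells depleted of the RNA-binding protein Sam68. Members were the rows of the deposited expression table that carry the symbol GABBR1 or GABBR2. Of 74852 loci in the table, 1 carried the symbol GABBR2 and 0 carried the symbol GABBR1. Going by its span and the genes listed inside it, a longer locus that the table names UBD covers GABBR1. That locus is described below as a joined unit. GABBR2 was chosen by its fold change, which was already known to be among the largest decreases between these same libraries. That fold change is therefore a description and carries no test.

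The GABA-B receptor is a class C G protein-coupled receptor that works as an obligate heterodimer. The GABBR1 subunit binds GABA, whereas the GABBR2 subunit brings GABBR1 to the cell surface and couples the receptor to Gi/o proteins. In neurons, where it is best known, the receptor lowers cyclic AMP by inhibiting adenylyl cyclase, opens GIRK potassium channels and closes presynaptic Cav2 calcium channels.

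The cells were MDA-MB-231, an established line from a triple-negative breast cancer, and received either non-targeting siRNAs (si-CTRL, 3 libraries) or siRNAs directed at SAM68 (si-SAM68, 3 libraries), each as a pool. Both groups went through 2 rounds of transfection and were collected 24 h after the second according to the sample labels. The methods section gives a longer time, counted from transfection without naming rounds, so that the harvests need not differ. It also gives another medium and another RNA kit. The libraries were prepared from polyadenylated RNA, and neither the labels nor the methods say whether the replicates came from separate cultures, so that the errors and p-values below measure the spread between these samples and may be technical. The 4 siRNAs against SAM68 were only used as 1 pool, so that the effect of each siRNA was not measured.

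The libraries held between 52625492 and 82568487 reads on all loci. KHDRBS1, the gene encoding Sam68, was at 14960 ± 620 normalised reads in si-CTRL and at 618 ± 45.8 in si-SAM68 (SD, n = 3), so that 4.13% of the control level was left in the si-SAM68 libraries. One library stood apart, si-SAM68 replicate 2, in which 15.1% of reads lay on the ribosomal RNA locus, against 1.83% to 3.17% elsewhere. Of the markers of the line, VIM was between 138300 and 173162 normalised reads, CD44 and EGFR were present, PGR was at 0 in every library, and ESR1, CDH1 and EPCAM did not exceed 15.2 normalised reads. ERBB2, listed as low in this line, went against its label, at 2822 normalised reads in si-CTRL and 2812 in si-SAM68, and per kb of transcript it was above EGFR (589 against 345 normalised reads per kb in si-CTRL). A normalised read is a read counted on a locus after division by the size factor of its library.

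GABBR2 was expressed at a low level in the control cells and at a much lower level after SAM68 depletion. In si-CTRL replicates 1, 2 and 3 GABBR2 was at 242, 209 and 199 normalised reads. In si-SAM68 replicates 1, 2 and 3 it was at 53.4, 50.6 and 35.7 normalised reads. All the si-SAM68 libraries were below all the si-CTRL libraries, and the lowest si-CTRL value was 3.72 times the highest si-SAM68 value. The means were 217 ± 22.9 and 46.6 ± 9.48 normalised reads (SD, n = 3), so that 21.5% of the si-CTRL level was left. On the log2(normalised reads + 1) scale the difference was -2.21 with a standard error of 0.194, and without si-SAM68 replicate 2, the library rich in ribosomal RNA, it was -2.28. Because these are bulk samples, fewer cells expressing GABBR2 and less GABBR2 RNA per cell cannot be told apart.

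**Figure D1:**
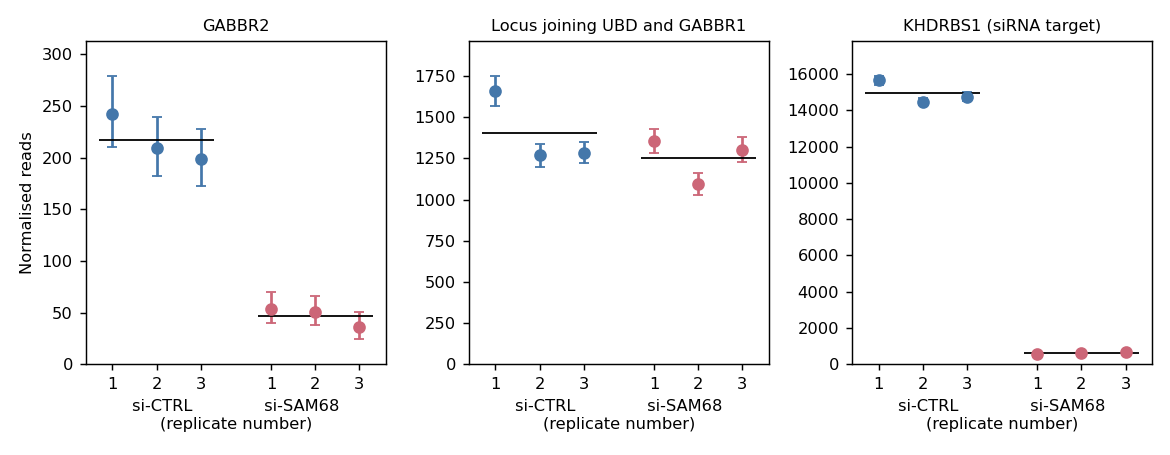
Normalised reads (linear axis from 0) of GABBR2, of the locus joining UBD and GABBR1 and of KHDRBS1 in each library, by replicate number. Points are libraries (blue si-CTRL, red si-SAM68), vertical bars are 95% Poisson intervals that cover counting error only, and horizontal lines are group means. GABBR2 lies between 199 and 242 in si-CTRL and between 35.7 and 53.4 in si-SAM68, whereas the libraries of the joined locus overlap between groups.

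The reads behind GABBR2 were few. In si-CTRL they were 194, 216 and 209 reads, and in si-SAM68 they were 53, 55 and 32 reads, in the order of the replicate numbers. The 95% Poisson interval was 173 to 228 normalised reads in si-CTRL replicate 3, the lowest of the controls. It was 40.0 to 69.8 normalised reads in si-SAM68 replicate 1, the highest of the depleted libraries. The intervals of the groups were therefore far apart, although they cover counting error only. Within si-CTRL the coefficient of variation of GABBR2 was 10.5%, where counting alone gives 7.02%. Within si-SAM68 it was 20.4%, where counting alone gives 14.7%. With 3 libraries per group these values do not show whether the spread exceeded counting error. The highest library of a group was at most 1.49 times its lowest.

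The GABBR2 locus (GSHG0031014) lies on chromosome 9 of hg19, from 101050366 to 101471536, and spans 421 kb. It was longer than 98.4% of the tested loci. Most of that span is intronic, since the longest coding transcript of GENCODE 29 (build GRCh38) has 5788 bases in 19 exons, with a 5'UTR of 460 bases, a coding sequence of 2826 bases with its stop codon (941 residues) and a 3'UTR of 2502 bases. The table lists 4 short loci inside GABBR2, of which 3 were at 0 in every library and the other reached 1.94 normalised reads. Reads on nested loci were thus negligible beside those of GABBR2. Per kb of transcript, GABBR2 was at 37.5 normalised reads in si-CTRL and at 8.05 in si-SAM68. On that per-length scale it lay at percentile 14.0 in si-CTRL and at percentile 4.87 in si-SAM68. The comparison covered 12021 genes with a known length and a mean of at least 10 normalised reads, so that silent genes were left out.

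The size of the GABBR2 difference was at the edge of the whole table. Among 18849 loci tested, those with a mean of at least 10 normalised reads, GABBR2 ranked 16 from the lowest log2 fold change. Among 15034 loci whose mean reached 50 normalised reads it ranked 4 from the lowest. For all tested loci the median log2 fold change was 0.01. A locus was called where limma gave an unadjusted p-value no higher than 0.05 and the fold change reached 1.5. These thresholds follow the methods section. By them 1445 loci (7.67%) were called, 534 (2.83%) higher and 911 (4.83%) lower in si-SAM68. A Benjamini-Hochberg adjusted p-value under 0.05 was reached by 2017 loci (10.7%), 4.47% higher and 6.23% lower. In 6395 loci (33.9%) the groups did not overlap, and in 17.3% all si-SAM68 libraries were the lower ones, as in GABBR2. The plot of all loci shows where GABBR2 lies among them. Long loci were chosen for a look after the values had been seen. Of 577 tested loci of at least 300 kb, 68 (11.8%) were called lower and 16 (2.77%) higher, with a median log2 fold change of -0.07. Whether the length of GABBR2 bears on its difference was not tested.

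**Figure D2:**
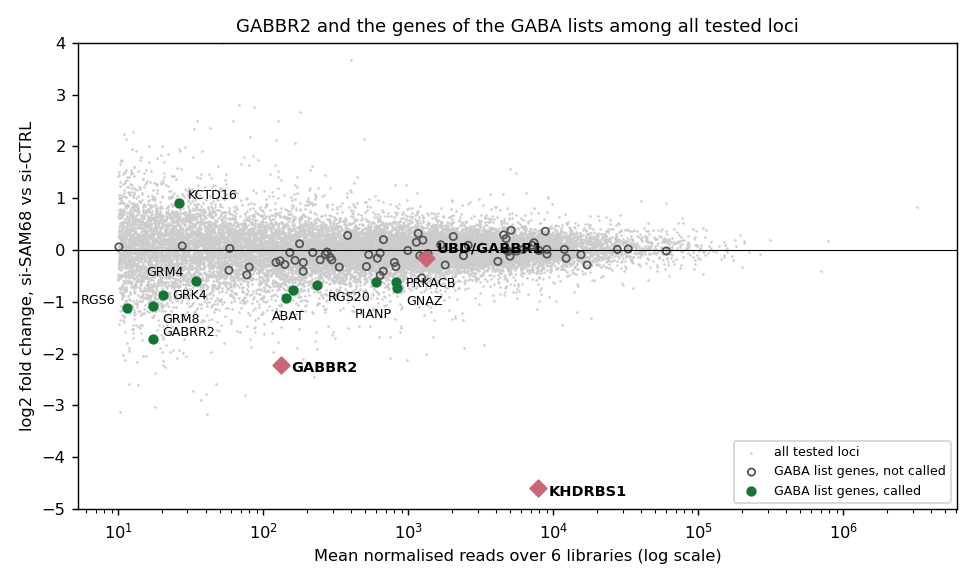
Log2 fold change of si-SAM68 against si-CTRL (vertical axis) by mean normalised reads over the 6 libraries (horizontal log axis) for the 18849 tested loci in grey. Red diamonds mark GABBR2, the UBD/GABBR1 locus and KHDRBS1, filled green points mark called genes of the GABA lists and open circles their other tested genes. GABBR2 lies at -2.21, lower than every gene of the GABA lists, and only KHDRBS1, at -4.60, is lower among the marked points.

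The locus taken to hold GABBR1 gave no such difference. The table has a locus of 77.5 kb named UBD (GSHG0118447) on chromosome 6 of hg19, from 29523390 to 29600912. In RefSeq (GRCh38.p14) the UBD gene itself is 4.22 kb long, the GABBR1 gene is 30.9 kb long, and both together with the stretch between them span 77.7 kb. OR2H2 and SNORD32B, which RefSeq places between UBD and GABBR1, are listed in the table inside that locus. GABBR1 was placed in the locus on these grounds only, because the exons counted for it were not known. UBD encodes a ubiquitin-like modifier known as FAT10, and the deposited count of the locus cannot be divided between UBD and GABBR1. In si-CTRL the joined locus was at 1661, 1273 and 1283 normalised reads (1406 ± 221, SD, n = 3). In si-SAM68 it was at 1356, 1092 and 1302 normalised reads (1250 ± 140, SD, n = 3). The groups overlapped, and the log2 fold change of -0.16 (standard error 0.127) left 88.9% of the si-CTRL mean, a difference smaller than the SD of the si-CTRL libraries. Without si-CTRL replicate 1, the highest library, the log2 fold change was -0.04, and without si-SAM68 replicate 2, the lowest, it was -0.07. A change of GABBR1 that reads from UBD cover, or the reverse, is not visible in a joined count.

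The sequences of the siRNAs are shown because GABBR2 was read only in cells that had received them. They are given 5' to 3' as the strand listed by the study, with capitals for the bases that pair with positions 2 to 8 of the guide strand, its seed. Each of the 4 siRNAs against SAM68 had 0 mismatches to a stretch of the KHDRBS1 coding sequence.
siSAM68_1: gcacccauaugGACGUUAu
siSAM68_2: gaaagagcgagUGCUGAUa
siSAM68_3: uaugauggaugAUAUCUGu
siSAM68_4: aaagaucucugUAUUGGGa
siCTRL_3: ugguuuacaugUUUUCUGa

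No SAM68 siRNA was a near match to GABBR2 over its whole length. The fewest mismatches in any ungapped alignment to the GABBR2 transcript were 6, 8, 6 and 6 for siSAM68_1 to siSAM68_4. Over the seed alone, siSAM68_2 had 1 match in the GABBR2 coding sequence (bases 2274 to 2280 of the transcript), and the other SAM68 siRNAs had 0. In the 3'UTR of GABBR2 the pool had 0 seed matches. For comparison, 28.7% of 19669 genes hold a match to the seed of siSAM68_2 in their transcript, and 25.0% hold a match to any of the 4 seeds in their 3'UTR. In the control pool, siCTRL_3 had 1 seed match in the GABBR2 3'UTR (bases 4812 to 4818), as 28.5% of genes do in theirs. A match to any seed of the control pool is held by 47.7% of genes in their 3'UTR. The 3'UTR of GABBR2 is longer than 77.5% of those compared, which gives more room for a match. Both windows are shown from the GENCODE 29 transcript, plus strand of the RNA, with the letters that match in capitals (TGCTGAT and TTTTCTG).
GABBR2, coding sequence, siSAM68_2: gggcatgcTGCTGATcgacctgt
GABBR2, 3'UTR, siCTRL_3: ccagtgacTTTTCTGacattcct
Such a match describes letters and does not show that an siRNA acted there. The part of either pool in the level of GABBR2 was not tested.

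The genes that work with the receptor were read from 11 lists (133 genes), which leave out both subunits. Of their 132 loci in the table, 79 were tested and 29 were at 0 in every library. Among the tested genes 12 (15.2%) were called, 1 higher and 11 lower (13.9%), beside 7.67% and 4.83% of all loci. By an adjusted p-value under 0.05, 9 of them (11.4%) passed, 1 higher and 8 lower, beside 10.7% of all loci. The median log2 fold change of the 79 genes was -0.11, beside 0.01 over all loci. Lower genes alone were 10.1% of those tested by adjusted p-values, beside 6.23% of all loci. The share of calls in the lists was thus above the background by these thresholds. By adjusted p-values it was close to the background in both directions together and above it for lower genes. The lists were written with earlier results of these data known, so that a share above the background can come from the choice of genes. The number called was 9 without si-SAM68 replicate 2, and 7 when si-CTRL replicate 1 or si-SAM68 replicate 3 was left out. None of the 79 had a log2 fold change as low as that of GABBR2, which was chosen for its low value.

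**Figure D3:**
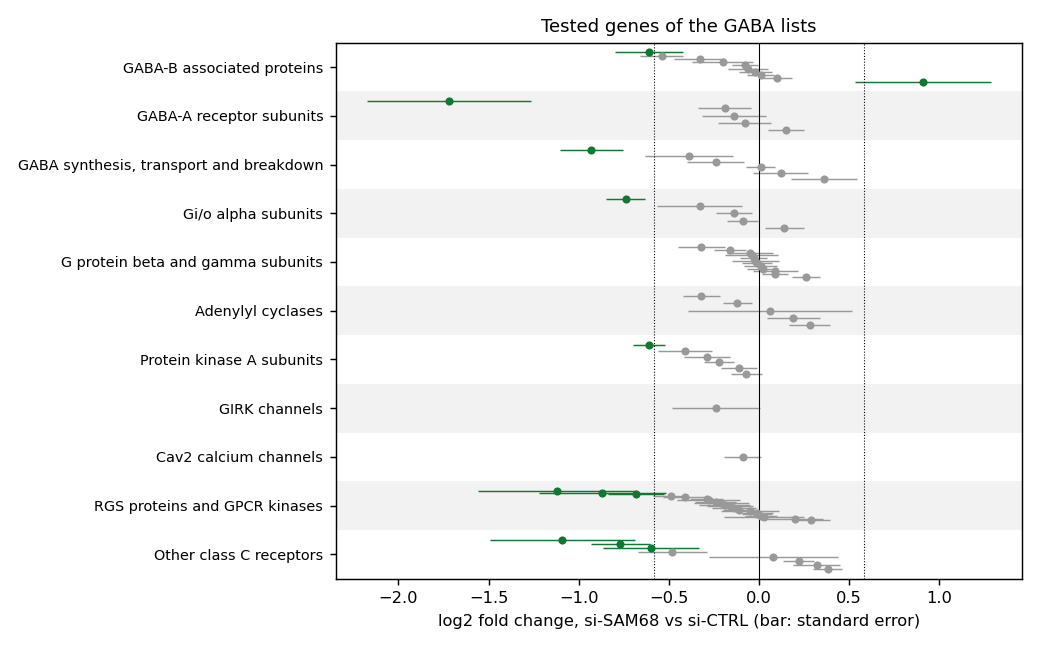
Log2 fold change of si-SAM68 against si-CTRL (horizontal axis, bars 1 standard error, n = 3 libraries per group) for the 79 tested genes of the GABA lists, 1 row per list. Green marks called genes, and dotted lines mark a fold change of 1.5. Most points lie within the dotted lines, with 11 called genes on the lower side and KCTD16 on the higher side.

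Proteins that bind the GABA-B receptor come first. Of 11 such genes 10 were tested, with 1 called higher and 1 called lower (20.0% called, beside 7.67% of all loci). Their median log2 fold change was -0.07. KCTD16, an auxiliary subunit that binds the tail of GABBR2, was at 12.5, 12.6 and 32.3 normalised reads in si-CTRL and at 34.3, 33.1 and 32.4 in si-SAM68. It was called higher by 0.91 on the log2 scale, with a limma adjusted p = 0.158. The third si-CTRL library was level with the si-SAM68 libraries, so that the call rested on the other two controls. It was lost without si-CTRL replicate 1 or without replicate 2 (0.69 in either case), and also without si-SAM68 replicate 1, 2 or 3 (0.88, 0.91 and 0.92). On the recovered reads KCTD16 was not called by edgeR (0.78, unadjusted p = 0.0728) or DESeq2 (0.78, unadjusted p = 0.0959). KCTD12, another auxiliary subunit of the same family, was at 315, 402 and 399 normalised reads in si-CTRL and at 263, 291 and 334 in si-SAM68, which overlap, and KCTD8 was at 0 in every library. KCTD12 was named after its values were seen.

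PIANP and AJAP1 encode transmembrane proteins that bind the extracellular part of GABBR1. PIANP was at 814, 770 and 588 normalised reads in si-CTRL and at 605, 464 and 364 in si-SAM68, groups that overlap by 1 library, although each si-SAM68 library was below the si-CTRL library of its number. It was called lower by thresholds (log2 fold change -0.61, limma adjusted p = 0.0633), and with the replicate number as a block the limma adjusted p was 0.0194. The call was lost without si-CTRL replicate 1 (-0.52), si-CTRL replicate 2 (-0.56) or si-SAM68 replicate 3 (-0.44), and with quantile normalisation (-0.58). AJAP1, named after its values were seen, was at 1680, 1227 and 1493 normalised reads in si-CTRL and at 955, 1073 and 979 in si-SAM68. Its groups did not overlap and it passed the adjusted p-value (limma, 0.0209), but its log2 fold change of -0.54 was under the fold threshold, which it passed without si-CTRL replicate 2 (-0.66) or si-SAM68 replicate 2 (-0.59). APP, whose secreted form binds GABBR1, was the most abundant member, at 60627 ± 6740 normalised reads in si-CTRL and 59402 ± 2700 in si-SAM68 (SD, n = 3). ATF4, a transcription factor that binds GABA-B subunits, was at 27514 ± 1720 and 27689 ± 556 normalised reads (SD, n = 3). For these abundant members the difference between groups was smaller than the spread between libraries.

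GABA itself is made from glutamate and broken down in mitochondria. Of 12 genes of GABA synthesis, transport and breakdown 6 were tested, with a median log2 fold change of -0.11. Of these 0 were called higher and 1 lower (16.7%, beside 4.83% of all loci). ABAT, the transaminase that starts the breakdown of GABA, fell from 204, 180 and 178 normalised reads in si-CTRL to 112, 77.3 and 108 in si-SAM68. Its log2 fold change was -0.93 (standard error 0.176, limma adjusted p = 0.0113), with no overlap between the groups. GAD1, the decarboxylase that makes GABA, was at 147, 171 and 193 normalised reads in si-CTRL and at 205, 165 and 185 in si-SAM68, and GAD2 was at 0 in every library. The vesicular transporter SLC32A1 was at 0 as well. GAD1, GAD2 and SLC32A1 were named after their values were seen. ALDH9A1, an aldehyde dehydrogenase that can yield GABA, was at 6151 ± 499 normalised reads in si-CTRL and at 6195 ± 147 in si-SAM68 (SD, n = 3), and was not called.

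The ionotropic GABA-A receptors respond to the same ligand by opening chloride channels. Of 19 subunit genes 5 were tested and 10 were at 0 in every library. GABRR2, a rho subunit, fell from 23.7, 23.2 and 33.3 normalised reads in si-CTRL to 10.1, 11 and 3.35 in si-SAM68, by 1.72 on the log2 scale (standard error 0.453, limma adjusted p = 0.0403). The groups did not overlap, but the level was low, and over the alternatives tried the adjusted p-value ran from 0.0312 to 0.123, with the call by thresholds kept in each. The most abundant subunit was GABRA3, at 1077 ± 113 normalised reads in si-CTRL and 1193 ± 63.0 in si-SAM68 (SD, n = 3). GABRE followed at 305 ± 83.4 and 271 ± 14.7 normalised reads (SD, n = 3). Both overlapped between the groups, and neither was called.

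Gi/o proteins carry the signal of the GABA-B receptor into the cell. All 5 alpha subunit genes were tested, with 1 called lower (20.0%, beside 4.83% of all loci) and a median log2 fold change of -0.14. GNAZ, a Gi family alpha subunit that inhibits adenylyl cyclase and is insensitive to pertussis toxin, fell from 1089, 1046 and 984 normalised reads in si-CTRL to 703, 591 and 575 in si-SAM68. Its log2 fold change was -0.74 (standard error 0.106, limma adjusted p = 0.00302), and the groups were well apart. The more abundant GNAI2 and GNAI3 were at 15936 ± 1180 and 7033 ± 1070 normalised reads in si-CTRL, and at 15023 ± 1200 and 7664 ± 190 in si-SAM68 (SD, n = 3), in each case with overlap. Of 15 genes for beta and gamma subunits 12 were tested, with a median log2 fold change of -0.01. Of these 0 were called, by thresholds or by adjusted p-values, beside 7.67% and 10.7% of all loci. Their most abundant members were GNG12, with a log2 fold change of 0.02 (standard error 0.0855), and GNB1, with -0.16 (standard error 0.0874).

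Adenylyl cyclase and protein kinase A lie downstream of Gi/o. Of 5 adenylyl cyclases tested 0 were called, beside 7.67% of all loci. The most abundant members, ADCY3 and ADCY9, had log2 fold changes of -0.12 and 0.19. ADCY7 has no row under its symbol. All 6 protein kinase A subunits had a lower mean in si-SAM68, with a median log2 fold change of -0.26, beside 0.01 over all loci. Of the 6, 1 was called (16.7%, beside 7.67% of all loci). PRKACB, a catalytic subunit, fell from 994, 990 and 1008 normalised reads in si-CTRL to 682, 606 and 675 in si-SAM68 (log2 fold change -0.61, standard error 0.0912, limma adjusted p = 0.00374). Without si-SAM68 replicate 2 its log2 fold change was -0.55, just under the fold threshold, with a limma adjusted p = 0.0262. The catalytic subunit PRKACA and the regulatory subunits PRKAR1A and PRKAR2B also had all si-SAM68 libraries below the si-CTRL ones, as 17.3% of all loci did. Their log2 fold changes of -0.22, -0.29 and -0.41 were not called (limma adjusted p = 0.123, 0.175 and 0.115). PRKAR2B was named after its values were seen.

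The channels on which the receptor acts in neurons were mostly silent. Of the 4 GIRK genes only KCNJ6 was tested, at 166, 93.0 and 141 normalised reads in si-CTRL and at 135, 114 and 84.9 in si-SAM68, which overlap. KCNJ3 and KCNJ9 were at 0 in every library and KCNJ5 was at 13.7 normalised reads or less. Of the 3 Cav2 genes CACNA1B was tested, at 549 ± 39.6 normalised reads in si-CTRL and 517 ± 23.7 in si-SAM68 (SD, n = 3), and was not called. CACNA1E was at 0 in every library. KCNJ3, KCNJ5, KCNJ9 and CACNA1E were named after their values were seen.

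RGS proteins speed up the switching off of G proteins, and GPCR kinases phosphorylate active receptors. Of 28 such genes 20 were tested, with 3 called lower and 0 called higher, beside 4.83% and 2.83% of all loci. The median log2 fold change of the tested genes was -0.17, beside 0.01 over all loci. RGS20, which acts on Gαz, the product of GNAZ, fell from 276, 277 and 314 normalised reads in si-CTRL to 178, 149 and 217 in si-SAM68 (log2 fold change -0.68, limma adjusted p = 0.0231). The groups did not overlap, but without si-SAM68 replicate 2 the log2 fold change was -0.55 and the call was lost. RGS6 and GRK4 were called at low levels, with log2 fold changes of -1.12 and -0.87 and limma adjusted p-values of 0.132 and 0.148. Their means in si-CTRL were 16 ± 3.90 and 26.4 ± 3.72 normalised reads (SD, n = 3). Without si-CTRL replicate 1, si-CTRL replicate 3 or si-SAM68 replicate 3 both calls were lost, at -1.05, -1.0 and -0.88 for RGS6 and at -0.83, -0.79 and -0.57 for GRK4. RGS6 was also not called without si-SAM68 replicate 2 (-1.10), and DESeq2 called neither gene (unadjusted p = 0.0686 for RGS6 and 0.0838 for GRK4). GRK3, named after its values were seen, passed the adjusted p-value (limma, 0.0128) at a log2 fold change of -0.49, from 748 ± 38.2 to 531 ± 27.9 normalised reads (SD, n = 3). The abundant kinases GRK2 and GRK6 had log2 fold changes of 0.01 and -0.01.

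Class C is the receptor family of GABBR1 and GABBR2. Of 20 other members 8 were tested, with 3 called lower (37.5%, beside 4.83% of all loci) and 0 called higher. The metabotropic glutamate receptors GRM4 and GRM8 were called lower at low levels, with log2 fold changes of -0.60 and -1.09 and limma adjusted p-values of 0.18 and 0.118. The GRM8 call was lost without si-CTRL replicate 1 (-0.88) or si-SAM68 replicate 1 (-0.74). The GRM4 call was lost without si-CTRL replicate 2 (-0.41), si-CTRL replicate 3 (-0.68), or si-SAM68 replicate 1, 2 or 3 (-0.61, -0.69 and -0.51), with a pseudocount of 5 (-0.54), without a filter (unadjusted p = 0.061) and in DESeq2 (unadjusted p = 0.0918). The orphan receptors GPRC5A and GPRC5B, the most abundant members, had log2 fold changes of 0.38 and 0.22 (limma adjusted p = 0.0188 and 0.148), neither reaching a fold change of 1.5.

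Compared per kb of transcript, GABBR2 stood between the abundant and the weak members of its family. In si-CTRL GPRC5B (837 normalised reads per kb), GPRC5A (602) and GPRC5C (348) were above GABBR2 (37.5), and GPR179 (11.3), TAS1R3 (7.68), GRM8 (5.88) and GRM4 (5.79) were below it. In si-SAM68 GABBR2, at 8.05 normalised reads per kb, was level with GPR179 at 8.0 and TAS1R3 at 8.39. GPRC5C, GPR179 and TAS1R3 were named after their values were seen.

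Markers of neurons, the cells in which the GABA-B receptor is best known, were read beside GABBR2. Of 12 markers 7 were tested, with 1 called higher and 3 called lower (57.1% called, beside 7.67% of all loci) and a median log2 fold change of -0.28. By an adjusted p-value under 0.05, 2 passed (28.6%, beside 10.7% of all loci). SNAP25, a SNARE protein of synaptic vesicle release, fell from 184, 158 and 163 normalised reads in si-CTRL to 74.5, 74.5 and 79.3 in si-SAM68 (log2 fold change -1.13, standard error 0.149, limma adjusted p = 0.00209). SYT1, the calcium sensor of vesicle release, fell from 934, 816 and 849 to 472, 570 and 565 normalised reads (log2 fold change -0.69, limma adjusted p = 0.00504). Neither gene overlapped between the groups. MAP2, a dendritic microtubule protein, was called lower (log2 fold change -0.77, limma adjusted p = 0.0654) and SYP, a synaptic vesicle protein, was called higher (0.75, limma adjusted p = 0.123). The SYP call was lost without si-CTRL replicate 1 (0.51) or without si-SAM68 replicate 1, 2 or 3 (0.76, 0.73 and 0.75), and in DESeq2 (unadjusted p = 0.0664). The summed level of the 12 markers ran from 12363 to 13023 normalised reads in si-CTRL and from 10401 to 12321 in si-SAM68, most of it from TUBB3 and ENO2, with log2 fold changes of -0.11 and -0.08. DLG4 was at 2112 ± 66.8 normalised reads in si-CTRL and 1740 ± 126 in si-SAM68 (SD, n = 3). Its groups did not overlap, and it was not called (log2 fold change -0.28). The markers STMN2, NEFL, NEFM, GAP43 and RBFOX3 of the same list were at or near 0, with no value above 5.70 normalised reads. DLG4 and these markers were named after their values were seen.

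None of the genes around GABBR2 had a difference as large as that of GABBR2. Since GABBR2 was chosen for its large decrease, few loci of any kind could match it. Within 500 kb of either end the table lists 25 loci, of which 12 were tested, 9 had a lower mean in si-SAM68 and 1 (8.33%) was called, beside 7.67% of all loci. The median log2 fold change of the tested neighbours was -0.11, beside 0.01 over all loci. CORO2A, a coronin that binds actin, fell from 220, 283 and 244 normalised reads in si-CTRL to 163, 121 and 189 in si-SAM68, without overlap (log2 fold change -0.67, standard error 0.182, limma adjusted p = 0.043). The call was lost without si-CTRL replicate 2 (-0.58) or si-SAM68 replicate 2 (-0.49). With the replicate number as a block the limma adjusted p-value was 0.0706 for CORO2A and 0.0645 for GABRR2, although both calls by thresholds held. ANKS6, 22.1 kb from GABBR2 and its nearest tested neighbour, had a log2 fold change of -0.36 (limma adjusted p = 0.0633). On the other side TBC1D2, a Rab GTPase-activating protein at 31.7 kb, had -0.17. As in CORO2A, all si-SAM68 libraries of ANKS6, TRIM14 (-0.39) and GALNT12 (-0.32) were below the si-CTRL ones. The same held in 17.3% of all loci. ANKS6, TRIM14 and GALNT12 were not called. The other tested neighbours had log2 fold changes between -0.12 for TRMO and 0.20 for COL15A1.

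**Figure D4:**
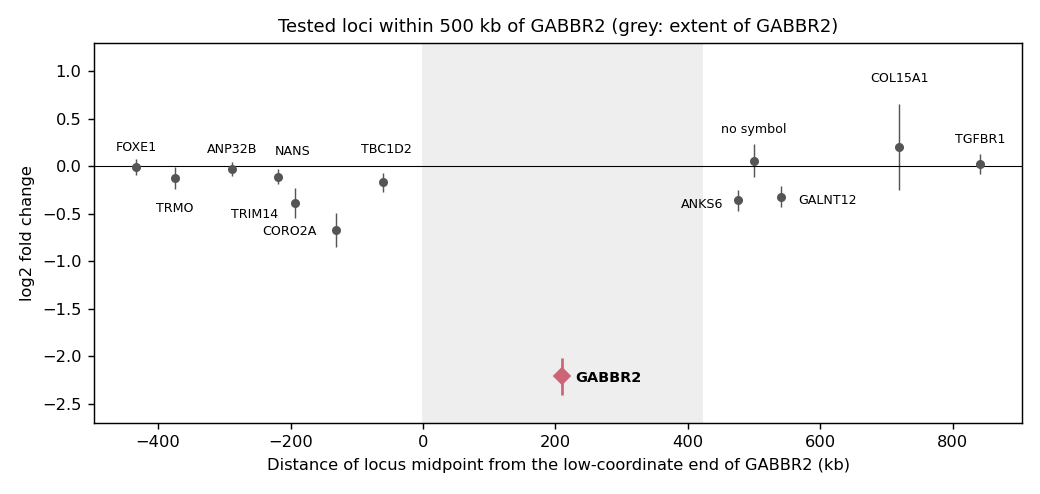
Log2 fold change of si-SAM68 against si-CTRL (vertical axis, bars 1 standard error, n = 3 libraries per group) for GABBR2 and the 12 tested loci within 500 kb, by the distance of each locus midpoint from the low-coordinate end of GABBR2 in kb. The grey band is the extent of GABBR2. GABBR2 lies at -2.21 and its neighbours between -0.67 and 0.20.

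The genes whose pattern over the 6 libraries was most like that of GABBR2 were taken as the 5 with the highest Pearson correlation of log2(normalised reads + 1), out of 12112 named loci with a mean of at least 50 normalised reads. They were RPTOR (0.9986), CLCN4 (0.9979), CCDC184 (0.9971), TBL1X (0.9966) and PLCG2 (0.9966). The libraries fall into the 2 groups of the experiment, so that such a value mostly measures how cleanly the groups separate, and 404 genes exceeded 0.95. KHDRBS1 itself was at 0.981 and ranked 89. The sizes of the differences were unlike, with log2 fold changes of -1.63 for CCDC184, -1.34 for CLCN4, a chloride and proton exchanger, -1.05 for RPTOR, the scaffold subunit of mTORC1, -0.39 for TBL1X, a corepressor subunit, and -0.37 for PLCG2, a phospholipase C. CCDC184 was the only one at a level like that of GABBR2, with 175, 147 and 135 normalised reads in si-CTRL and 51.4, 51.5 and 42.4 in si-SAM68. In all 5 genes, as in GABBR2, si-CTRL replicate 1 was the highest library and si-SAM68 replicate 3 the lowest. The genes were picked by their correlation over these same libraries, so that a shared order was largely built in.

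**Figure D5:**
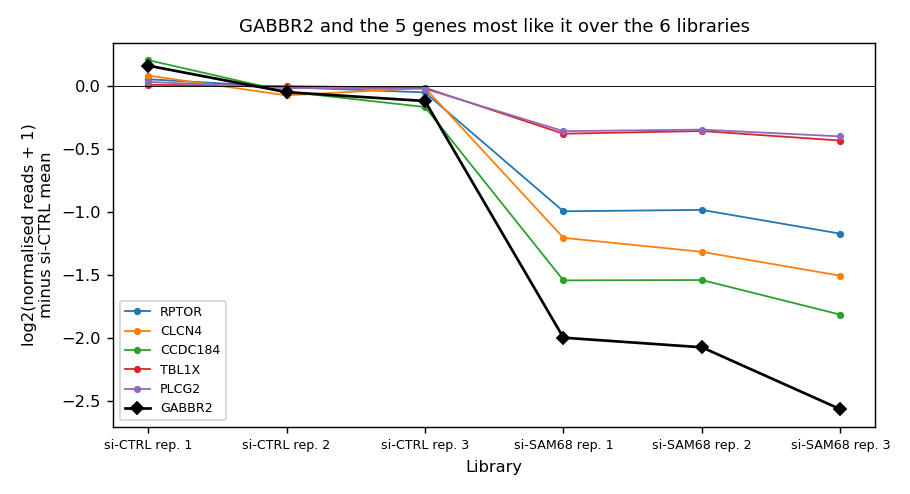
Log2(normalised reads + 1) minus the si-CTRL mean (vertical axis) in each of the 6 libraries (horizontal axis) for GABBR2 (black diamonds) and the 5 genes with the highest Pearson correlation to it. All 6 genes are lower in si-SAM68, GABBR2 by the most, and their sizes run from -0.37 for PLCG2 to -2.21 for GABBR2.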

How the data were processed

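The sample labels gave each library its condition and replicate number. The authors deposited 1 table for the series, whose values are a signal: reads counted on each FAST DB locus (hg19) divided by the DESeq2 size factor of the library. The submitters' processing notes name STAR 2.4.0, and the counting program and its use of strand are not given in the sources used here. Divided by the smallest step of their library, 100% of the values came out whole (tolerance 0.02), which gave the reads. As no locus carries the symbol GABBR1, its planned value was replaced by that of the UBD locus.

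The test was limma 3.58.1 (R 4.3.3, lmFit, eBayes with a trend) on log2(normalised reads + 1) over loci whose mean reached 10, without a replicate term. Fold changes are on that scale and understate those of low genes. Adjustment followed Benjamini-Hochberg across every locus tested. On the recovered reads edgeR 4.0.16 (quasi-likelihood test) called 1498 loci and DESeq2 1.42.0 called 1334. The programs were tested on simulated data. Deviations from the group means correlated at 0.105, 0.231 and 0.125 between libraries of the same number and at -0.125 to 0.007 otherwise. Such deviations cancel out within a group, so that higher values for some pairs partly force lower ones for others. Whether the numbers pair the libraries is therefore not settled. The calls reported come from the unpaired fit, and a paired fit, with the number as a block, was an alternative.

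The members and lists were chosen with earlier results of these data known. Named genes are the subunits, KHDRBS1, the called and the 2 most abundant tested members of each list, the tested neighbours within 500 kb, and the 5 genes most like GABBR2. Some genes that this rule names are not reported here. Precision is limited by 3 libraries per group. Transcript sequences are from GENCODE 29 (GRCh38) and siRNA sequences from the list supplied with the study.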

Additional observations from a re-analysis of the deposited data

How the results depend on the processing

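The log2 fold change of GABBR2 was -2.21 and ranged from -2.32 to -2.03 when 1 library was left out, lowest without si-SAM68 replicate 1 and highest without si-SAM68 replicate 3. Under pseudocounts of 0.1 and 5, no filter, a minimum mean of 50, TMM factors, quantile normalisation, eBayes without a trend, edgeR and DESeq2 it lay between -2.23 and -2.12. The joined UBD and GABBR1 locus ranged from -0.23 to -0.04 with 1 library left out. With the replicate number as a block the values were -2.21 and -0.16, 1514 loci and 12 list genes were called, and the block changed the call of none of 61 named genes, while the adjusted p-value came under 0.05 for PIANP and rose above it for GABRR2 and CORO2A.

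The number of loci called was 2240 without a filter on low values and 428 at a fold change of at least 2, against 1445, and 1301 to 1831 with 1 library left out. The number of list genes called was 6 at a minimum mean of 50 (fewer genes tested) and 3 at a fold change of at least 2, against 12. It ran from 7 to 11 with 1 library left out, with 7 when either si-CTRL replicate 1 or si-SAM68 replicate 3 was dropped. ABAT, GNAZ, SNAP25 and SYT1 were called, with an adjusted p-value under 0.05, in all 16 alternatives. No value changed sign where it was called. KCTD16 was called in 8 of 15 alternatives and GRM4 in 7 of 15. The lack of a separate GABBR1 count cannot be overcome from the deposited values, and the raw reads were not counted anew.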
